A study of Mus musculus with 11 samples.

Results

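The gastric mucosa genes described here are 34 mouse genes that mark the epithelium of the stomach lining, read in samples labelled as stomach muscle wall and in cell lines grown from that wall. They were chosen by symbol, as markers of surface, neck, chief, parietal and endocrine cells of the gastric glands and of epithelium in general. Earlier results of these data were known when they were chosen, so counts over them are descriptions. All 34 had at least 1 probe set with a single gene symbol, out of 18193 genes named on the array, and a gene with several was read from the brightest on average over the 11 arrays. A filter on dim genes, which kept genes above an array's median on at least 2 arrays, left 31 of the 34 for testing and dropped Ehf, Vsig1 and Lipf.

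Transcripts were measured on Affymetrix mouse arrays in 4 groups, 1 array per sample. The tsA58 line (3 arrays) and the C57BL/6J line (3 arrays) are clonally derived progenitors of interstitial cells of Cajal, the pacemaker cells of gut muscle. Tissue was the gastric tunica muscularis, the muscle coat that lies under the mucosa, of H-2Kb-tsA58 mice (3 arrays) and of C57BL/6J mice (2 arrays). H-2Kb-tsA58 mice carry a temperature-sensitive large T antigen of SV40, driven by the interferon-inducible H-2Kb promoter. The line from them was grown at 39.5 °C, with no interferon-gamma, and the C57BL/6J line at 37 °C with 5% chick embryo extract, both in the same neural stem cell medium. Strain, transgene, temperature and extract therefore cannot be told apart between the lines, and each line is 1 clone. The ages and sexes of the animals, and whether a tissue array holds 1 animal or a pool, are not given in the labels, so p-values measure the spread between these samples, which may be technical.

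The lining of the stomach is folded into pits and glands. Surface cells of the pits secrete mucins, trefoil factors and gastrokines, neck cells secrete another mucus, parietal cells pump acid, chief cells store zymogens, and endocrine cells release hormones such as ghrelin and gastrin. The muscle coat beneath holds smooth muscle, enteric neurons and interstitial cells, and normally has no gland. In bulk tissue, fewer cells of a type and less RNA per cell cannot be told apart.

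Promoter sequences are shown because their genes carry the main contrasts below: the gastrokines, which were high on every tissue array, and the zymogens Cym and Pgc, which were highest on different tissue arrays. RefSeq's promoter table (GRCm38.p6, 250 bases before to 50 after each gene's start) held 24 of the 34 genes, in 29 windows. Capitals mark 2 motifs searched on both strands, TATAAA, the letters of a TATA box, and AGATAA, letters that GATA factors bind. Each window is 300 bases, written 5′ to 3′ along the gene.
Gkn1, chr6:87350866-87351165, minus strand: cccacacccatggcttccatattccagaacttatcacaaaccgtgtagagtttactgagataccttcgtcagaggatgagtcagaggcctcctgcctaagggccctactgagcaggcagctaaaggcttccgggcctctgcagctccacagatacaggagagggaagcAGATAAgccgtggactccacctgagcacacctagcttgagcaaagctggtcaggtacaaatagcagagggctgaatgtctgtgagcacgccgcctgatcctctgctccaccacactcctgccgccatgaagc
Gkn2, chr6:87373115-87373414, plus strand: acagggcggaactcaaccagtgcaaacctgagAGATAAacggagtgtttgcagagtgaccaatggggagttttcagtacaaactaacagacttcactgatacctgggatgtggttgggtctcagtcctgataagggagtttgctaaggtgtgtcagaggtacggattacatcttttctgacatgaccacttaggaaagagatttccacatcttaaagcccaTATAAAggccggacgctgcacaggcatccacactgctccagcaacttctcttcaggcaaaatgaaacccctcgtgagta
Gkn3, chr6:87388886-87389185, minus strand: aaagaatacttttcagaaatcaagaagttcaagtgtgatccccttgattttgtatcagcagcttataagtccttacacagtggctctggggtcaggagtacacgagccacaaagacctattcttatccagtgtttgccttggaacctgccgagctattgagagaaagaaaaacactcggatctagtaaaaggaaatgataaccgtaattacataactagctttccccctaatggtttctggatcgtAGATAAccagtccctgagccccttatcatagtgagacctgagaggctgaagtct
Cym, chr3:107221683-107221982, minus strand: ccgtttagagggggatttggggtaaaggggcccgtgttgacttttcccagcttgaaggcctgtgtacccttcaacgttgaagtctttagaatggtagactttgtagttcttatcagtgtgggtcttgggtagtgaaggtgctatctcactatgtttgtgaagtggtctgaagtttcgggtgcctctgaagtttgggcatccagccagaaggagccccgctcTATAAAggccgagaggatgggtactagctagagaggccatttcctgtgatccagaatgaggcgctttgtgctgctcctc
Pgc, chr17:47726592-47726891, plus strand: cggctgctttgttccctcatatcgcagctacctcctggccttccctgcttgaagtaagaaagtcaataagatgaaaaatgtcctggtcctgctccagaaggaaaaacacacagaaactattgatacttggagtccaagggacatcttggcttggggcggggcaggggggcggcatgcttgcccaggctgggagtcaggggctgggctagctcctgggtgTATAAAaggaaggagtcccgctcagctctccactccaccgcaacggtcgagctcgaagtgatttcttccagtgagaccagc

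The 3 gastrokine genes are neighbours on chromosome 6, with no other protein-coding gene between Gkn1 and Gkn2 or between Gkn2 and Gkn3, and each of their windows held AGATAA. It lay 82 bases before the start of Gkn1, 218 before Gkn2 and 4 before Gkn3. The only other gene with it among the 24 was Cldn18, and 13.8% of the 29 windows held it, against 11.2% of all 32851 windows of the table. TATAAA lay 29 bases before the starts of Gkn2 and Cym and 31 before that of Pgc. It was found for 7 of the 24 genes, the others being Muc1, Anxa10, Chga and, on the opposite strand, Gast. That is 24.1% of the 29 windows, against 13.6% of all windows. The forkhead letters TGTTTAC were in none of these windows and in 3.65% of all. A match of letters describes the window and is not a bound site.

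Levels are log2 intensities that the authors normalised with RMA, and array medians lay between 4.66 and 4.84. Signal near the median may be background alone, so a difference from such a level is a lower estimate. The labelled tissue was checked first. The smooth muscle gene Myh11, a myosin heavy chain, averaged 3.73 ± 0.10 in the tsA58 line, 4.27 ± 0.00 in the C57BL/6J line, 12.94 ± 0.36 in tsA58 tissue and 12.18 ± 0.05 in C57BL/6J tissue (SD, n = 3, 3, 3 and 2). Actin Actg2 and desmin Des were likewise high on all 5 tissue arrays, at 12.30 to 13.18 and 9.86 to 12.58. The interstitial cell receptor Kit read 6.83 to 8.61 on the tissue arrays and 3.16 to 3.87 on the line arrays, so the lines stood near background for the defining receptor of mature interstitial cells. Ano1, the chloride channel of those cells, averaged 7.15 ± 0.78 and 6.26 ± 0.28 in the tsA58 and C57BL/6J lines, and 9.83 ± 0.24 and 9.91 ± 0.03 in the 2 tissues. Tissue of both strains was therefore rich in muscle transcripts, and the mucosa genes below were read in the same RNA.

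Many mucosa genes read far above the array median in the muscle wall and near it in both lines. For 22 of the 34 genes, all 5 tissue arrays lay above all 6 line arrays, against 16.3% of all tested genes. The 22 had passed the filter, as had 9 of the 12 genes whose tissue and line arrays overlapped. Of the 31 tested genes 12 passed the filter through tissue alone, so counts over those that passed are descriptions. On all 5 tissue arrays 28 of the 34 genes read above the array median, and 14 read above it on no line array.

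**Figure D1:**
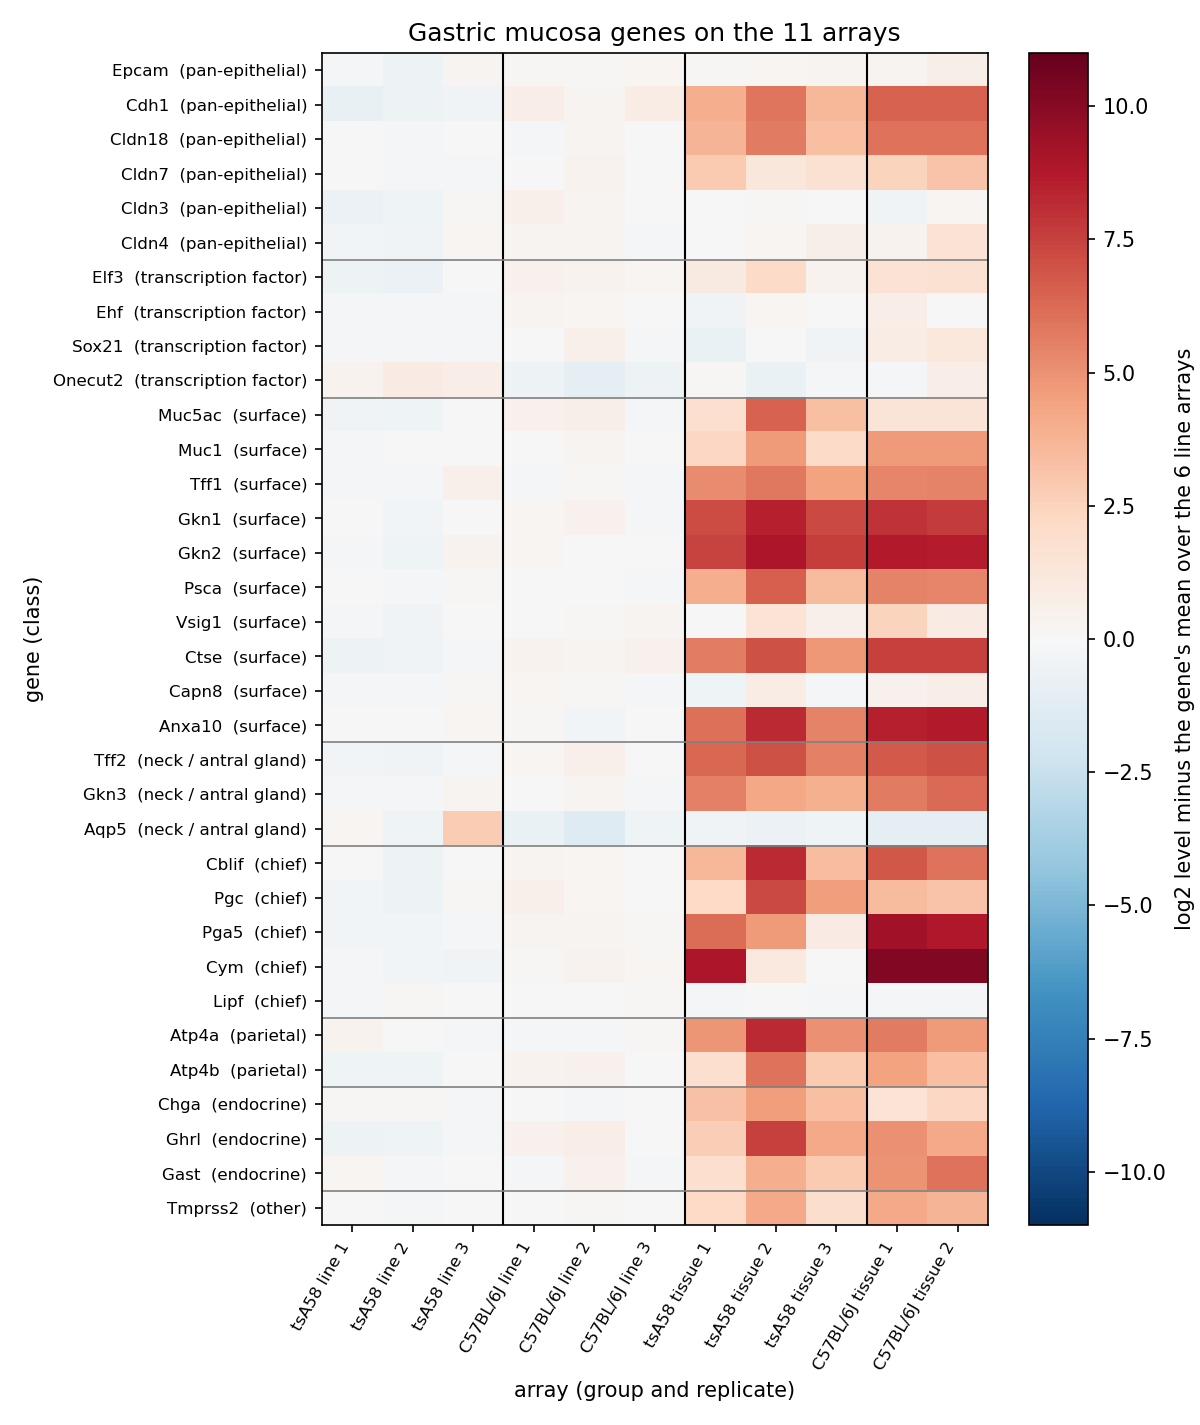
Each row is 1 of the 34 mucosa genes, by class, and each column 1 of the 11 arrays, with the tsA58 and C57BL/6J lines left of the tsA58 and C57BL/6J tissues. Colour gives the log2 level minus the gene's mean over the 6 line arrays. Gkn1, Gkn2, Tff1 and Tff2 are high on all 5 tissue arrays, with spans of 1.31 to 1.45 log2 units, while chymosin and the pepsinogens change more from array to array. Gkn3, also high on all 5, spans 2.37 log2 units.

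Of the surface cell genes, Gkn1, Gkn2 and Tff1 were high on all 5 tissue arrays. Gkn2, a gastrokine secreted by surface cells, read 5.11, 4.81 and 5.64 on tsA58 line arrays, 5.47, 5.29 and 5.23 on C57BL/6J line arrays, 12.72, 14.17 and 12.82 in tsA58 tissue, and 13.96 and 13.90 in C57BL/6J tissue. The 5 tissue values were all more than 7 log2 units above the highest line value, a gap of 7.08. The fitted difference was -8.05 ± 0.35 (SE) between the tsA58 line and its tissue (265-fold lower, limma adjusted p = 3.8e-08) and -8.60 ± 0.40 between the C57BL/6J line and its tissue (389-fold lower, adjusted p = 1.2e-07). Gkn1, its neighbour and another gastrokine, read 12.31, 13.76 and 12.44 in tsA58 tissue and 13.07 and 12.84 in C57BL/6J tissue, against line values of 4.84 to 5.60. It differed by -7.82 ± 0.34 in the tsA58 pair and by -7.65 ± 0.38 in the C57BL/6J pair (limma adjusted p = 3.4e-08 and 2.2e-07). Tff1, the trefoil peptide packed with surface mucin, was above the median on the line arrays too, at 7.52 to 8.28. It reached 12.99, 13.53 and 12.22 in tsA58 tissue and 13.17 and 13.23 in C57BL/6J tissue, with no overlap (differences -5.08 ± 0.31 and -5.51 ± 0.35). Over the 5 tissue arrays these 3 genes spanned 1.31 to 1.45 log2 units. That is below the median span of tested members (2.62) and above that of all tested genes (0.89). The other probe set of Gkn1 read 11.48, 13.46 and 11.83 in tsA58 tissue and 12.88 and 12.62 in C57BL/6J tissue.

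Most other surface genes varied more between tissue arrays. Ctse, cathepsin E, an aspartic protease of surface cells, read 10.64, 12.05 and 9.81 in tsA58 tissue and 12.57 and 12.56 in C57BL/6J tissue, against 4.43 to 5.54 on the line arrays. Anxa10, an annexin, read 9.46, 11.62 and 8.83 in tsA58 tissue and 11.96 and 12.08 in C57BL/6J tissue, against 3.14 to 3.62 in the lines. Both were low on tsA58 tissue replicates 1 and 3 relative to the other 3 tissue arrays. Psca, a membrane-anchored surface antigen, and Muc1, a membrane mucin, followed that order: on tsA58 tissue replicates 1 and 3 they read 8.75 to 9.29 and 6.95 to 7.14, and on the other 3 tissue arrays 10.67 to 11.89 and 9.52 to 9.58. All 4 genes were called lower in each line, with differences from -3.08 ± 0.55 (Muc1, tsA58) to -8.68 ± 0.61 (Anxa10, C57BL/6J). Vsig1, an adhesion protein of gastric epithelium, rose above the array median on only 1 tissue array, at 5.63 on C57BL/6J tissue replicate 1, and Capn8, a stomach calpain, on 2, with a highest value of 4.89.

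Muc5ac, the gel-forming mucin of surface cells, ran apart from the rest of its class. It read 5.27, 5.16 and 5.63 on tsA58 line arrays, 6.16, 6.27 and 5.41 on C57BL/6J line arrays, 7.52, 12.16 and 8.97 in tsA58 tissue, and 7.08 and 7.06 in C57BL/6J tissue. Tissue replicate 2 of tsA58 was more than 3 log2 units above every other array, and the C57BL/6J tissue arrays were only just above the lines. It was called lower in the tsA58 line (-4.20 ± 0.88, limma adjusted p = 0.0027) and not in the C57BL/6J line (-1.12 ± 0.98, adjusted p = 0.38). The difference between those differences, -3.07 ± 1.32, did not pass the test (adjusted p = 0.12). Without tsA58 tissue replicate 2 the tsA58 difference was -2.89 and the C57BL/6J one, now with a smaller error, passed (adjusted p = 0.043).

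Of the neck and antral gland genes, Tff2 and Gkn3 behaved like the surface genes and Aqp5 did not. Tff2, the trefoil peptide of neck cells, read 10.95, 11.60 and 10.17 in tsA58 tissue and 11.41 and 11.62 in C57BL/6J tissue, against 4.28 to 5.23 in the lines. Gkn3, a gastrokine of neck cells, read 11.04, 9.79 and 9.38 in tsA58 tissue and 11.20 and 11.75 in C57BL/6J tissue, against 5.25 to 5.82. Its order over tsA58 tissue, with replicate 1 highest, was unlike that of the surface genes, where replicate 2 was highest. The differences were -6.56 ± 0.31 and -6.59 ± 0.35 for Tff2, and -4.59 ± 0.38 and -5.96 ± 0.42 for Gkn3, in the tsA58 and C57BL/6J pairs. Aqp5, a water channel of antral glands, read 6.87, 6.17 and 9.41 on tsA58 line arrays, 5.84, 5.20 and 6.17 on C57BL/6J line arrays, 6.22, 5.99 and 6.17 in tsA58 tissue, and 5.50 and 5.56 in C57BL/6J tissue. Its highest value was on a line array, tsA58 replicate 3, and no difference was called.

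The chief cell genes differed in which tissue arrays were high. Cym, chymosin, the milk-clotting protease of suckling mammals, read 12.87, 5.03 and 3.94 in tsA58 tissue and 14.15 and 14.11 in C57BL/6J tissue, against 3.58 to 4.30 on the 6 line arrays. It was thus far above the array median on 3 tissue arrays, near the array median on tsA58 tissue replicate 2 and within the line values on replicate 3. No other member had a wider span over tissue, 10.21 log2 units. Pga5, a pepsinogen, read 10.82, 9.37 and 5.60 in tsA58 tissue and 13.88 and 13.52 in C57BL/6J tissue, against 4.35 to 5.01 in the lines. It was highest where Cym was high and lowest where Cym was lowest.

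Pgc, the other pepsinogen of the list, read 7.29, 12.37 and 9.70 in tsA58 tissue and 8.55 and 8.19 in C57BL/6J tissue, against 4.52 to 5.64 in the lines. Its highest array, tsA58 tissue replicate 2, was 1 of the 2 where Cym was near background, and the array on which Cym was high in that strain, replicate 1, had the lowest tissue value of Pgc. Cblif, the vitamin B12 carrier intrinsic factor, made by chief cells in mice, read 7.36, 11.94 and 7.13 in tsA58 tissue and 10.55 and 9.73 in C57BL/6J tissue, against 3.20 to 4.07. Lipf, gastric lipase, read 2.96 to 3.34 on all 11 arrays, below the median on each.

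In the fit, Pga5 was called lower in the tsA58 line (-4.17 ± 0.97, adjusted p = 0.0051) and likewise in the C57BL/6J line (-8.77 ± 1.09, adjusted p = 0.0001), as was Cblif (-5.23 ± 1.00 and -6.22 ± 1.11). Cym was called in the C57BL/6J line alone, at -9.95 ± 1.95 (990-fold lower, limma adjusted p = 0.0018), and missed the threshold in the tsA58 line (-3.60 ± 1.74, adjusted p = 0.11), with no call for the difference between the 2 differences (6.35 ± 2.61, adjusted p = 0.11). Pgc was called in both, by -4.96 ± 0.93 for tsA58 (adjusted p = 0.0014) and by -3.03 ± 1.04 for C57BL/6J (adjusted p = 0.034). The C57BL/6J call of Pgc was lost when any 1 of the 5 C57BL/6J arrays was left out, with adjusted p of 0.061, 0.075 and 0.080 without line replicates 1, 2 and 3, and of 0.15 and 0.11 without tissue replicates 1 and 2. Leaving out a C57BL/6J tissue array, here and below, leaves that group with 1 array, which is assumed to vary like the other groups.

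**Figure D2:**
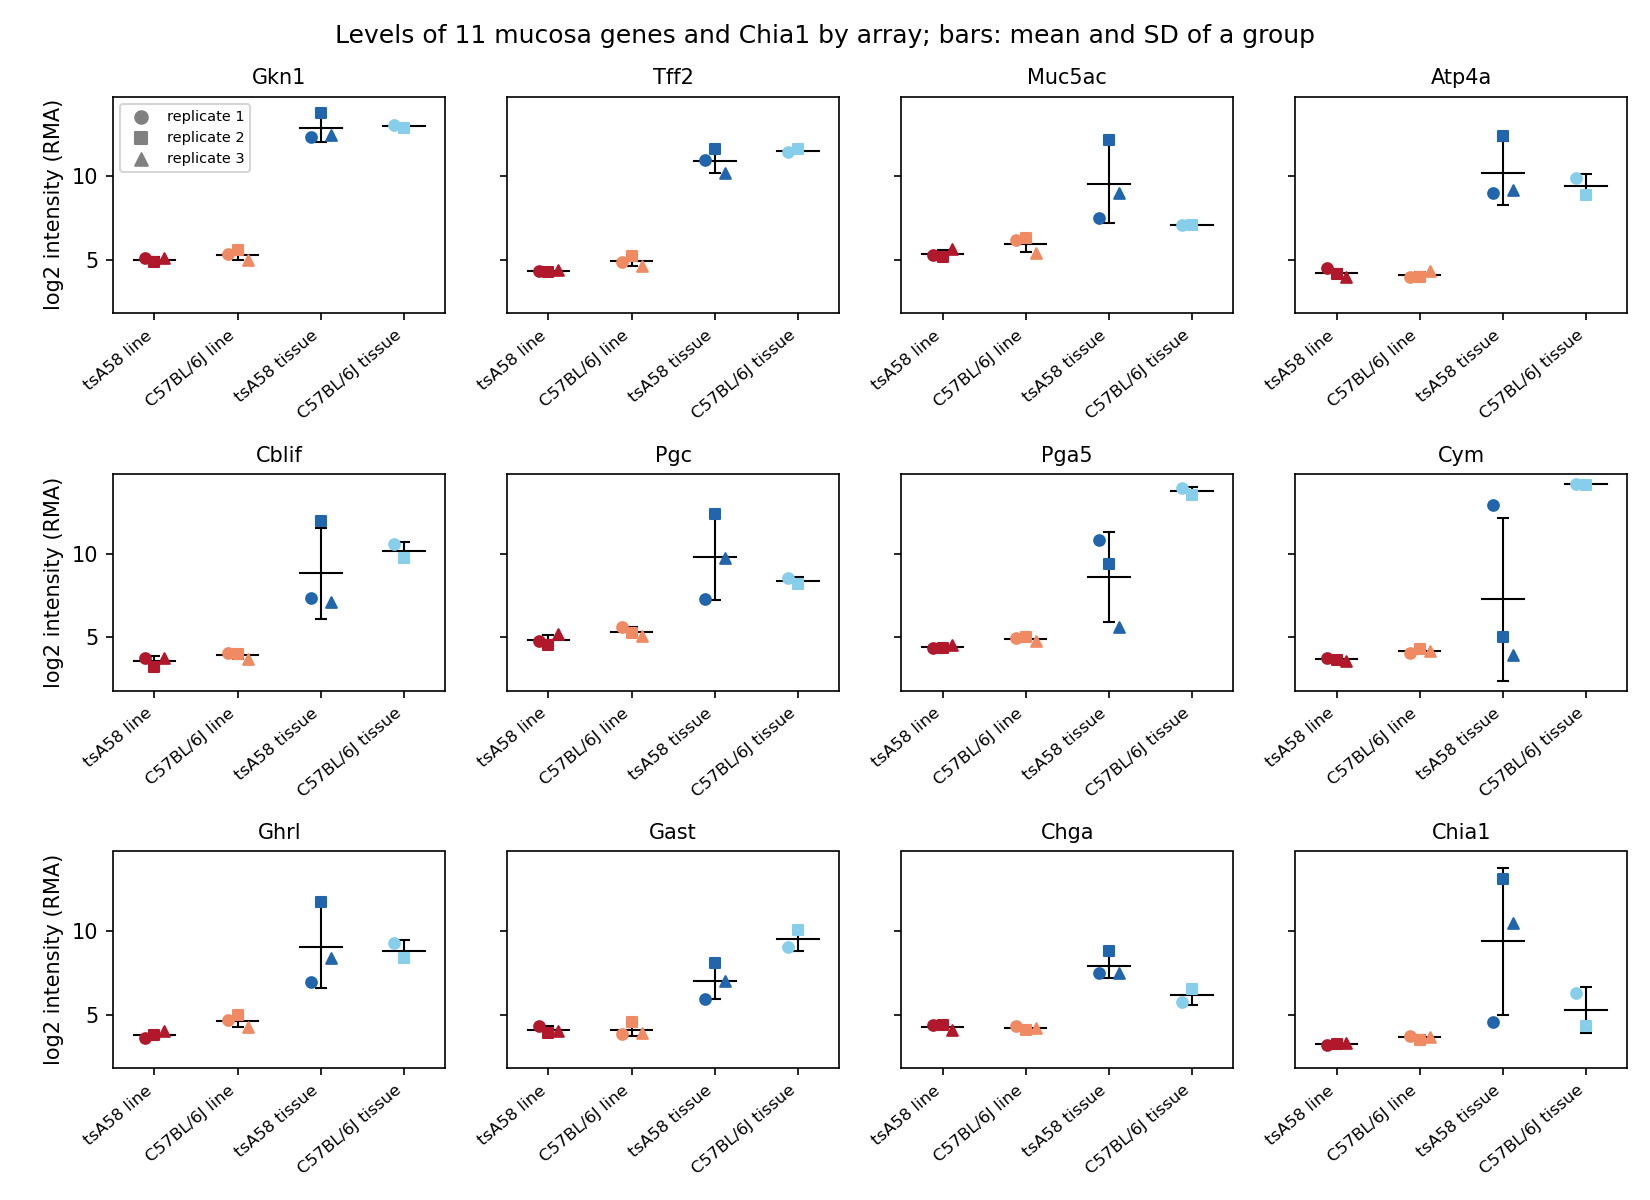
Each panel shows 1 gene as log2 intensity on each array, in the order tsA58 line, C57BL/6J line, tsA58 tissue and C57BL/6J tissue, with symbols for replicates and bars for the mean and SD of a group. In tsA58 tissue, chymosin (Cym) spans 3.94 to 12.87 and pepsinogen C (Pgc) 7.29 to 12.37, with different replicates on top.

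Parietal cell genes were present on every tissue array. Atp4a, the catalytic subunit of the acid pump, read 4.50, 4.14 and 3.99 on tsA58 line arrays, 3.99, 3.99 and 4.32 on C57BL/6J line arrays, 8.98, 12.40 and 9.19 in tsA58 tissue, and 9.90 and 8.86 in C57BL/6J tissue. The lines and tissues did not overlap, and tsA58 tissue replicate 2 stood clear above the other 4 tissue arrays. The differences were -5.98 ± 0.73 in the tsA58 pair (63.1-fold lower, limma adjusted p = 8.5e-05) and -5.28 ± 0.82 in the C57BL/6J pair (38.9-fold lower, adjusted p = 0.00042). Atp4b, the pump's other subunit, had the same highest array, reading 7.75, 11.90 and 8.85 in tsA58 tissue and 10.41 and 9.22 in C57BL/6J tissue, against 5.49 to 6.41 in the lines. Its differences were -3.85 ± 0.81 and -3.57 ± 0.91, and the C57BL/6J call was lost without C57BL/6J tissue replicate 1 (adjusted p = 0.081).

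Endocrine genes were also read on all 5 tissue arrays, each with its own order. Ghrl, ghrelin, the hunger hormone, read 6.95, 11.75 and 8.41 in tsA58 tissue and 9.27 and 8.38 in C57BL/6J tissue, against 3.63 to 4.96 in the lines. Gast, gastrin, the antral hormone that drives acid secretion, read 5.96, 8.12 and 7.01 in tsA58 tissue and 9.04 and 10.04 in C57BL/6J tissue, against 3.86 to 4.56. Chga, chromogranin A, a granule protein of endocrine cells and of some neurons, read 7.47, 8.82 and 7.52 in tsA58 tissue and 5.78 and 6.55 in C57BL/6J tissue, against 4.10 to 4.40. Gast was thus higher on both C57BL/6J tissue arrays than on any tsA58 one, and Chga was lower on both. In the tsA58 and C57BL/6J pairs the line differed by -5.22 ± 0.91 and -4.18 ± 1.02 for Ghrl, by -2.93 ± 0.47 and -5.44 ± 0.53 for Gast, and by -3.65 ± 0.34 and -1.95 ± 0.38 for Chga, all called. The Ghrl call in C57BL/6J was lost without C57BL/6J tissue replicate 1 (adjusted p = 0.059).

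Genes of epithelium in general were mixed. Cdh1, E-cadherin, the adhesion protein of epithelial junctions, read 2.62, 2.93 and 3.07 on tsA58 line arrays, 4.14, 3.71 and 4.24 on C57BL/6J line arrays, 7.41, 9.37 and 7.12 in tsA58 tissue, and 9.98 and 9.91 in C57BL/6J tissue. All lines were below the array median and all tissues well above it (differences -5.10 ± 0.47 and -5.91 ± 0.53, limma adjusted p = 1.2e-05 in each pair). Cldn18, a tight junction claudin of the stomach, read 7.40, 9.40 and 6.94 in tsA58 tissue and 9.64 and 9.65 in C57BL/6J tissue, against 3.46 to 3.98 in the lines. Cldn7, another claudin, was dimmer, at 5.16 to 7.01 on the tissue arrays and 3.70 to 4.30 on the line arrays, and was called lower in both lines. Cldn3 and Cldn4, neighbouring genes for claudins of many epithelia, were called in neither, with line values of 5.84 to 7.04 and 4.43 to 5.16 and tissue values of 6.03 to 6.65 and 4.89 to 6.39.

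Epcam, the epithelial adhesion molecule, gave a different answer with each of its probe sets. The one with the highest mean read 5.94 to 6.78 on the line arrays and 6.60 to 7.14 on the tissue arrays and was not called (-0.37 ± 0.22 and -0.31 ± 0.24 in the tsA58 and C57BL/6J pairs). Its other probe set read 4.61, 3.96 and 4.24 on tsA58 line arrays, 4.50, 3.64 and 3.80 on C57BL/6J line arrays, 9.25, 8.87 and 7.31 in tsA58 tissue, and 8.48 and 8.74 in C57BL/6J tissue. With that probe set, which is the more variable, the tissue arrays lay well above the lines and Epcam was called lower in both, at -4.20 and -4.63. Those readings resembled Cdh1, and those of the flat probe set did not.

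The transcription factors on the list had no common pattern. Elf3, an epithelial ETS factor, read 4.97 to 6.07 on the line arrays and 5.94 to 7.70 on the tissue arrays, which overlapped. It was called lower in both lines (-1.54 ± 0.37 and -1.22 ± 0.41, adjusted p = 0.0059 and 0.032 in the tsA58 and C57BL/6J pairs), and the C57BL/6J call was lost without any 1 of the 5 C57BL/6J arrays (adjusted p = 0.058, 0.066 and 0.081 without line replicates 1 to 3, and 0.11 and 0.14 without tissue replicates 1 and 2). Ehf, a related ETS factor, read 3.75 to 4.85 everywhere on the probe set used. Sox21, a SOX factor of stomach and other epithelia, read 7.08 to 7.73 in tsA58 tissue, 8.55 and 8.90 in C57BL/6J tissue and 7.55 to 8.29 in the lines. Its other probe set read 3.65 to 4.45 in tsA58 tissue, 4.65 and 5.35 in C57BL/6J tissue and 3.33 to 3.67 in the lines, below the array median. That probe set gave line-tissue differences of -0.53 and -1.62 in the tsA58 and C57BL/6J pairs. Tmprss2, a membrane serine protease of many epithelia, read 6.02, 7.96 and 5.76 in tsA58 tissue and 7.96 and 7.49 in C57BL/6J tissue, against 3.55 to 3.91 in the lines, and was called lower in both (-2.87 ± 0.46 and -3.85 ± 0.51).

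Onecut2, a homeobox factor of endoderm, was the only member called between the lines. It read 4.50, 5.04 and 4.87 on tsA58 line arrays, 3.51, 3.14 and 3.57 on C57BL/6J line arrays, 4.22, 3.40 and 3.85 in tsA58 tissue, and 4.0 and 4.85 in C57BL/6J tissue. The difference between the tsA58 line and the C57BL/6J line was 1.40 ± 0.28 (limma adjusted p = 0.006), with all 3 tsA58 arrays above all 3 C57BL/6J arrays, with values around or below the array median, where signal and background cannot be told apart. A stricter filter removed the gene, and its other probe sets did not pass the filter. The count of 1 became 2 without tsA58 line replicate 2 or without tsA58 tissue replicate 2. Over all tested genes 8.38% were called higher and 5.77% lower in the tsA58 line, against 1 and 0 of the 31 members.

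In all, 23 of 31 tested members were called lower, and none higher, when the tsA58 line was set against its tissue, against 18.9% lower and 12.8% higher of all 13285 tested genes. A call is an adjusted p below 0.05 with at least a 2-fold change. In the C57BL/6J line 24 were called lower and none higher, against 16.6% and 17.5% of all genes. The median difference over the tested members was -4.17 in the tsA58 pair and -4.61 in the C57BL/6J pair, and over all tested genes -0.00 and 0.12. The calls shared 22 genes. Muc5ac was called in the tsA58 pair alone, Cym and Onecut2 in the C57BL/6J pair alone, and Aqp5, Capn8, Cldn3, Cldn4, Epcam and Sox21 in neither. By class, 8 of 9 tested surface genes were lower in the tsA58 line and 7 of 9 in the C57BL/6J line, 3 and 4 of 4 chief cell genes, 2 of 2 parietal genes and 3 of 3 endocrine genes in each. Scaling the arrays on their hybridisation controls, which moved the median over all genes to 0.60 and 1.35, left 22 and 20 members lower, with 1 higher in each, against 8.66% and 5.44% of all genes lower and 13.7% and 38.8% higher.

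**Figure D3:**
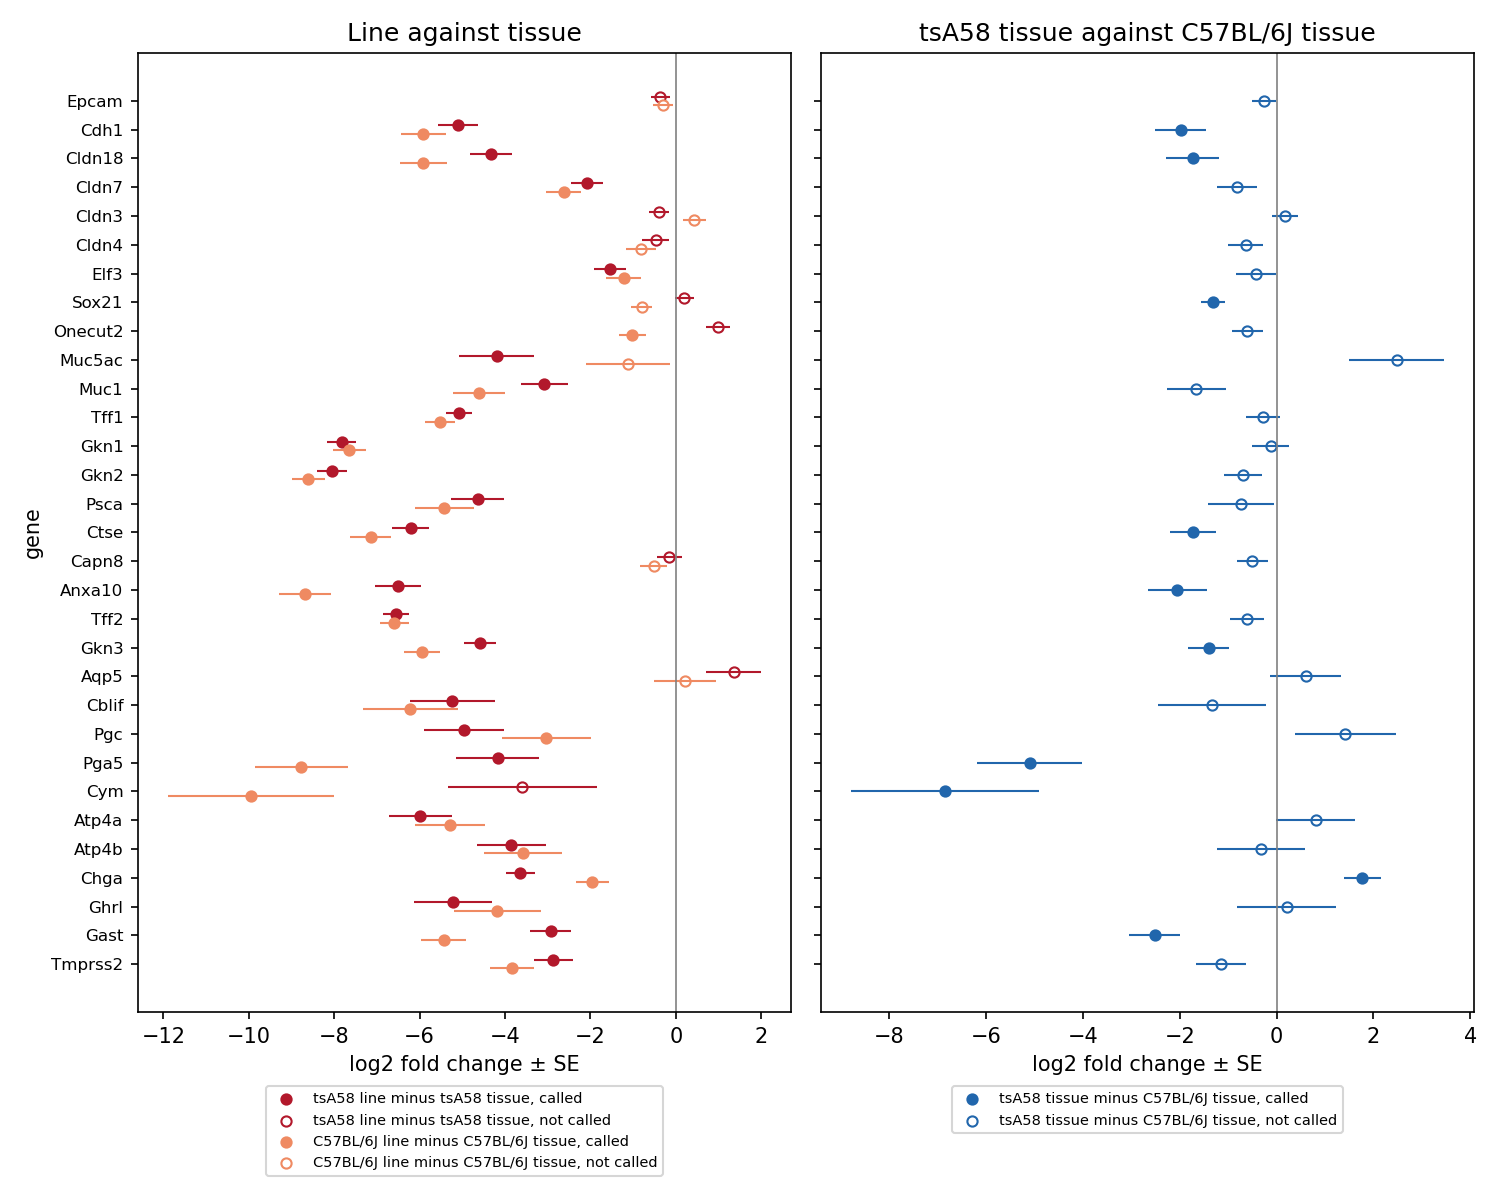
Left, log2 fold changes with SE of the tested members between each line and its tissue, with filled points called and open points not called. Right, the same between tsA58 tissue and C57BL/6J tissue, where 9 members were called lower and Chga higher. Relative to the median of all genes (0.18, or 2.30 with hybridisation control scaling), the differences of those 10 run from -7.03 to 1.60 with either scaling.

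The muscle samples of the 2 strains differed in some of their mucosa genes. Of 31 tested members 9 were called lower in tsA58 tissue than in C57BL/6J tissue, against 3.21% of all genes, and 1 higher, against 9.56%. With arrays scaled on hybridisation controls, which moved the median of all genes to 2.30, the counts were 2 lower and 18 higher, against 0.135% and 91.6% of all genes. That scaling adds 1 constant per array, so the differences of members relative to the median of all genes stayed as they were. The lower genes were Cym (-6.85 ± 1.95, limma adjusted p = 0.032), Pga5 (-5.10 ± 1.09, 0.0098), Gast (-2.51 ± 0.53, 0.0091), Anxa10 (-2.05 ± 0.61, 0.038), Cdh1 (-1.98 ± 0.53, 0.026), Ctse (-1.73 ± 0.48, 0.030), Cldn18 (-1.73 ± 0.55, 0.049), Gkn3 (-1.40 ± 0.42, 0.040) and Sox21 (-1.32 ± 0.25, 0.0053). Chga was higher, at 1.77 ± 0.38 (adjusted p = 0.010). No parietal gene was called, nor were Gkn1, Gkn2, Tff1 or Tff2, whose differences ran from -0.12 to -0.70. The median over members was -0.64, against 0.18 over all genes. Of 12 smooth muscle genes 4 were higher and 1 lower in tsA58 tissue, with a median of 0.86. Of 4 interstitial cell genes 2 were higher and 0 lower, with a median of 1.28, and of 8 enteric neuron genes 0 were called. The part of these shifts in the differences of the mucosa genes was not tested.

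The number of tissue calls moved with the arrays included, and so did the share of all genes called, 12.8% with all arrays. The count of 10 members was 2 and 1 without C57BL/6J tissue replicates 1 and 2, when 5.65% and 5.95% of all genes were called. It was 6 without C57BL/6J line replicate 1 (11.5% of all genes), 4 without tsA58 tissue replicate 3 (10.9%) and 14 without tsA58 tissue replicate 2 (14.5%). The 2 strains' tissue arrays also differed in hybridisation controls (8.74 ± 1.10 in tsA58 tissue, 10.86 ± 0.13 in C57BL/6J tissue). Poly-A controls averaged 6.12 ± 1.37 and 7.68 ± 0.30 in tsA58 and C57BL/6J tissue, and 4.47 ± 0.15 and 4.78 ± 0.09 in the 2 lines. On tsA58 tissue replicates 1 to 3 hybridisation controls read 7.52, 9.04 and 9.66, and poly-A controls 4.96, 5.79 and 7.63. The tissues differed too in actin signal of 3′ over 5′ probes on the log2 scale (0.44 ± 0.03 in tsA58 tissue, 0.93 ± 0.12 in C57BL/6J tissue). With that ratio as a covariate 3 members were called (Gast -2.79, Sox21 -1.40 and Chga 1.82), against 15.5% of all genes. The other 7 kept their direction, at -1.75 (Gkn3, adjusted p = 0.060) to -6.38 (Cym, adjusted p = 0.13). The part of these measures in the tissue difference, and of the poly-A controls in the line-tissue differences, was not tested.

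The line-tissue difference itself differed between strains for 4 members. It was more negative in C57BL/6J for Pga5 (difference of differences, tsA58 minus C57BL/6J, 4.60 ± 1.46, limma adjusted p = 0.045), Gast (2.51 ± 0.71, 0.029) and Onecut2 (2.00 ± 0.42, 0.0085), and more negative in tsA58 for Chga (-1.69 ± 0.51, 0.037). Over all tested genes 7.30% were called in the positive and 13.0% in the negative direction, against 3 and 1 of the 31 members. In both directions together, members were called no more often than genes in general. The count of 4 became 1 without C57BL/6J line replicate 1 or 3 or without tsA58 line replicate 1. It was 2 without tsA58 line replicate 2 or either C57BL/6J tissue array, 8 without tsA58 tissue replicate 1 and 13 without tsA58 tissue replicate 2. Of all genes 20.3% were called with all arrays, 14.9% to 17.6% in the fits with 1 member called, at most 18.7% in those with 2, and 21.0% and 21.3% in the fits with 8 and 13.

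Over the tissue arrays of both strains together, the members spread far more than genes in general. The range over the 5 tissue arrays had a median of 2.62 log2 units over the tested members and 0.89 over all tested genes. It passed 4 log2 units for 8 tested members (Cym, Pga5, Muc5ac, Pgc, Cblif, Ghrl, Atp4b and Gast) and for 1.27% of tested genes. For each of these 8 the SD was larger in tsA58 tissue (1.08 to 4.87, n = 3) than in C57BL/6J tissue (0.01 to 0.84, n = 2). The range also holds any difference between the strains. Replicate 2 of tsA58 tissue was the highest of the 5 arrays for 15 of the 34 members, against 18.1% of all tested genes. C57BL/6J tissue replicates 2 and 1 were the highest for 11 and 7, tsA58 tissue replicate 1 for 1 and replicate 3 for 0. Replicate 3 of tsA58 tissue was the lowest for 15 members and replicate 1 for 12.

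By class, the arrays did not keep 1 order. The median level above the lines was 4.60, 6.55 and 3.95 for surface genes on tsA58 tissue replicates 1 to 3, and 5.43 and 5.42 on C57BL/6J tissue replicates 1 and 2. For chief cell genes it was 3.61, 4.70 and 0.92 in tsA58 tissue and 6.80 and 5.98 in C57BL/6J tissue. For parietal genes it was 3.32, 7.10 and 3.97 in tsA58 tissue and 5.11 and 3.99 in C57BL/6J tissue. The parietal and surface medians were thus highest on tsA58 tissue replicate 2, and the chief cell median on the C57BL/6J arrays. The chief cell median covers 5 genes that went different ways, since Cym and Pga5 were highest on the C57BL/6J arrays, Pgc and Cblif on tsA58 tissue replicate 2, and Lipf was below the array median throughout. Over the same arrays smooth muscle medians were 5.87, 5.73 and 5.98 in tsA58 tissue and lower, at 4.86 and 4.92, in C57BL/6J tissue. Enteric neuron medians lay between 4.45 and 6.27.

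**Figure D4:**
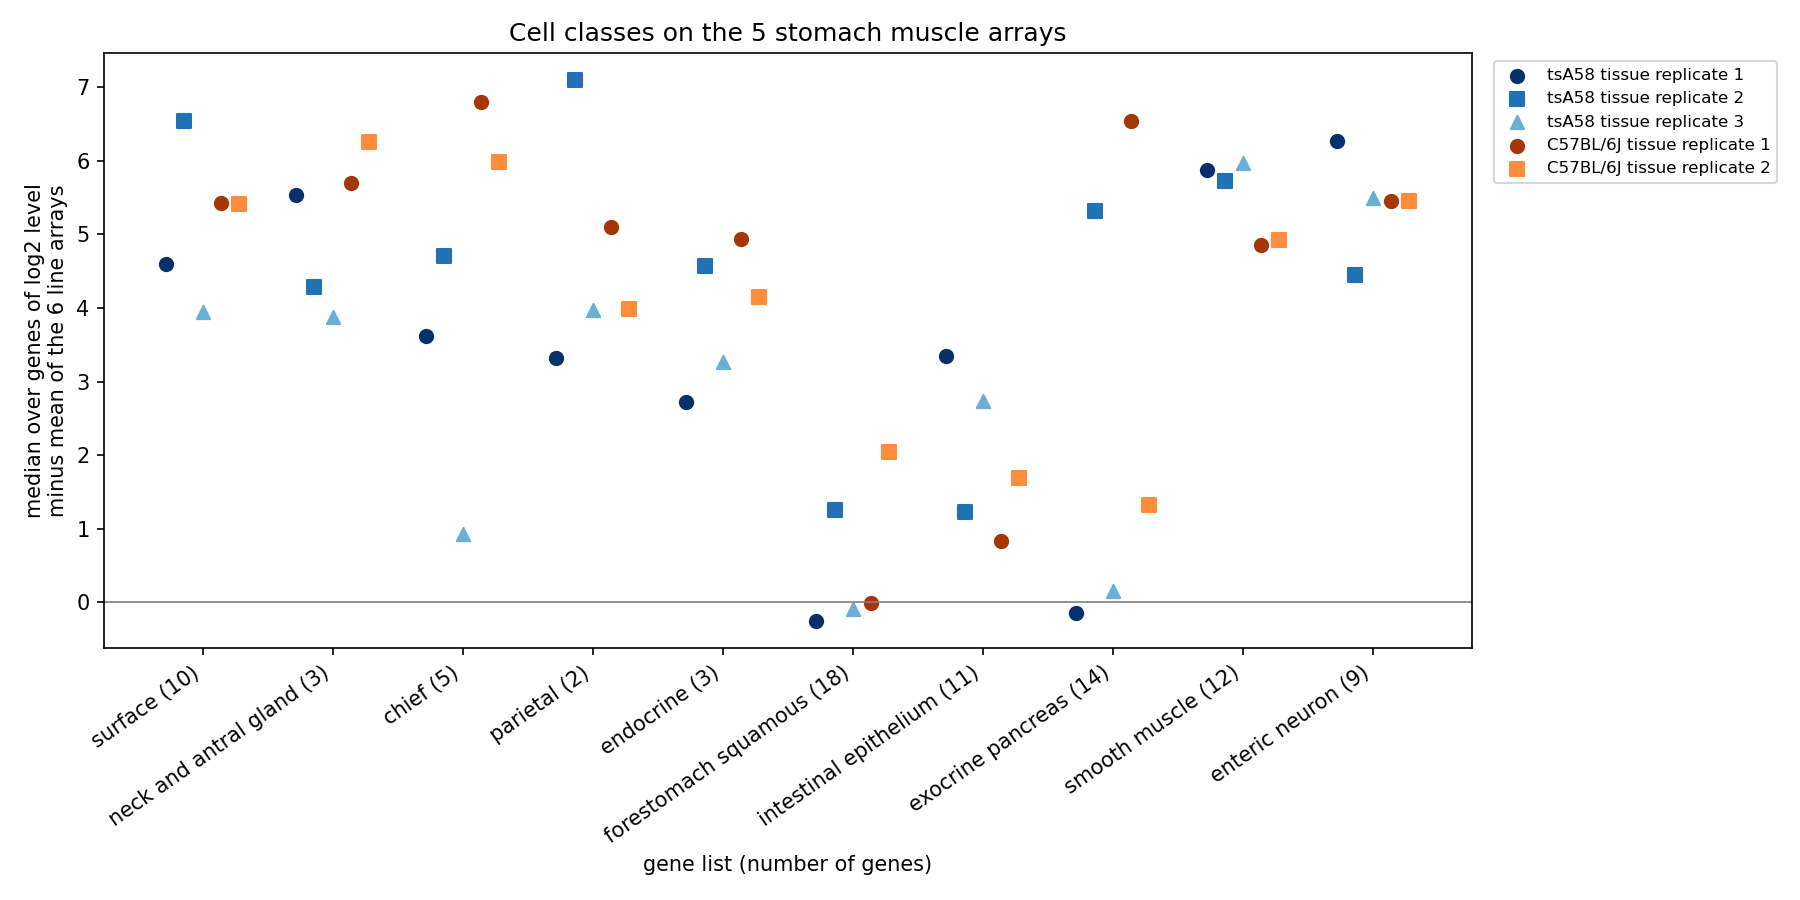
For each gene list, points show the median over its genes of the log2 level minus the mean of the 6 line arrays, for the 3 tsA58 and the 2 C57BL/6J tissue arrays. Muscle and neuron lists stay above 4 on every array, while chief, parietal and exocrine pancreas lists spread widely, the last from -0.15 to 6.54.

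Markers of other organs also varied between the tissue arrays. Exocrine pancreas genes with a probe set numbered 14. On tsA58 tissue replicate 2 and on C57BL/6J tissue replicate 1, 13 of them read more than 2-fold above every line array. Of these genes 4, 4 and 7 did so on tsA58 tissue replicates 1 and 3 and C57BL/6J tissue replicate 2. Their median above the lines was -0.15, 5.32 and 0.16 in tsA58 tissue and 6.54 and 1.33 in C57BL/6J tissue. Cpb1, pancreatic carboxypeptidase B, read 6.63, 10.81 and 7.15 in tsA58 tissue and 12.79 and 7.49 in C57BL/6J tissue, against 3.39 to 3.91 in the lines. The array with the most parietal and surface signal was thus 1 of the 2 with high pancreas genes. Without those 2 arrays, an alternative chosen after seeing the data, which leaves C57BL/6J tissue as 1 array, 23 members were called lower in the tsA58 line, 25 in the C57BL/6J line, and 10 lower in tsA58 than in C57BL/6J tissue. Of all genes 18.3%, 14.3% and 2.15% were called lower in those fits.

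Squamous and intestinal genes had yet other orders. Krtdap, a keratinocyte protein of the squamous forestomach, read 5.31, 9.79 and 3.56 in tsA58 tissue and 5.52 and 11.08 in C57BL/6J tissue, against 3.23 to 3.82 in the lines. Of 18 squamous genes, 1, 8 and 0 stood more than 2-fold above every line array on tsA58 tissue replicates 1 to 3. On C57BL/6J tissue replicates 1 and 2 the counts were 1 and 12. Fabp2, the fatty acid binding protein of enterocytes, read 8.60, 9.27 and 8.17 in tsA58 tissue and 7.59 and 8.65 in C57BL/6J tissue, against 2.65 to 3.17. The median of 11 intestinal genes was 3.35, 1.22 and 2.73 in tsA58 tissue, and 0.84 and 1.69 in C57BL/6J tissue. By that median tsA58 tissue replicates 1 and 3, low in surface genes, were the higher ones here. Fabp2 went the other way, with its highest value on tsA58 tissue replicate 2. The part of these other tissues in the order of the mucosa genes was not tested.

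Further genes of the same cell classes, from lists drawn up with earlier results of these data known, differed by class. Of all genes 18.9% and 16.6% were called lower, and 12.8% and 17.5% higher, in the tsA58 and C57BL/6J pairs. Of 12 more surface genes tested, 10 were lower in the tsA58 pair, and 8 were lower and 1 higher in the C57BL/6J pair. Agr2, a disulfide isomerase of mucous cells, read 9.92, 11.18 and 7.85 in tsA58 tissue and 11.67 and 11.47 in C57BL/6J tissue, against 3.26 to 4.02 in the lines. Of 10 more endocrine genes 7 were lower in each line, among them Chgb and Scg5, granule proteins that neurons also make. Of 8 more parietal genes 2 were lower in each line, with 1 higher in the C57BL/6J line, Slc4a2 (1.29 ± 0.33, limma adjusted p = 0.0087), a bicarbonate exchanger found in many cells. The 2 of 8 lower was a share near that of all genes. Slc26a7, a parietal cell anion transporter, was lower in both, by -3.37 ± 0.26 (tsA58) and -3.54 ± 0.29 (C57BL/6J).

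Of 10 more chief and neck cell genes 4 were lower in the tsA58 pair and 2 in the C57BL/6J pair, the second a share near that of all genes. Pdia2, a disulfide isomerase of pancreas and stomach, was lower in both (-4.10 ± 1.06 and -4.48 ± 1.18), while Xbp1, the secretory cell factor, read 10.10 to 10.61 in the lines and 10.33 to 11.11 in tissue. Chia1, the acidic chitinase of mouse chief cells, is named after its values were seen. It read 4.56, 13.10 and 10.49 in tsA58 tissue and 6.28 and 4.33 in C57BL/6J tissue, against 3.18 to 3.76 in the lines. It was high on the 2 arrays where Cym was near background and low on the 3 where Cym was high.

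General epithelial genes were not all confined to tissue. Of 21 more of them tested, 12 were lower in each line, and 1 was higher in the tsA58 line. Krt8, a simple epithelial keratin, read 4.88, 4.99 and 5.27 on tsA58 line arrays, 9.00, 8.46 and 10.08 on C57BL/6J line arrays, 11.10, 11.94 and 10.50 in tsA58 tissue, and 11.98 and 12.18 in C57BL/6J tissue. Its partner Krt18 read 9.78 to 11.82 in the lines and 9.05 to 10.79 in tissue, and was the gene higher in the tsA58 line (1.48 ± 0.49, limma adjusted p = 0.028). Krt8 and Krt18 are also made by mesothelium, and the mesothelial gene Upk3b averaged 9.69 ± 2.42 and 12.27 ± 0.08 in the tsA58 and C57BL/6J lines, and 10.84 ± 0.16 and 10.07 ± 0.15 in the 2 tissues. Of 11 stomach transcription factors tested, 4 were lower and 2 higher in the tsA58 line, and 6 were lower and 2 higher in the C57BL/6J line. Of all genes 18.9% and 16.6% were lower, and 12.8% and 17.5% higher, in the tsA58 and C57BL/6J pairs. The 2 of 11 higher was a share near that of all genes. Gata6, a GATA factor of foregut endoderm and mesoderm, was higher in both (1.07 ± 0.37 and 1.91 ± 0.41), and Klf5, a factor of gut epithelium, was lower in the C57BL/6J line (-1.70 ± 0.32).

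For 12 members the array holds more than 1 probe set, and most but not all gave the same sign. The other probe set of Gkn1 gave -8.97 and -9.36 in the tsA58 and C57BL/6J pairs, and that of Gkn3 -5.10 and -6.55. The other probe set of Ctse gave -0.44 and -0.79, and it was higher in tsA58 than in C57BL/6J tissue by 1.10. For Ehf, the most variable probe set read 2.39 to 2.83 in the lines, 4.06, 3.31 and 2.97 in tsA58 tissue, and 5.12 and 6.75 in C57BL/6J tissue, giving -0.83 and -3.18. Of the 4 probe sets of Tmprss2, 3 gave negative differences in both pairs and 1 did not, at 0.20 and 0.56. All 3 probe sets of Onecut2 gave a positive difference in the tsA58 pair (0.74 to 0.98) and a negative one in the C57BL/6J pair (-0.50 to -1.55).

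**Figure D5:**
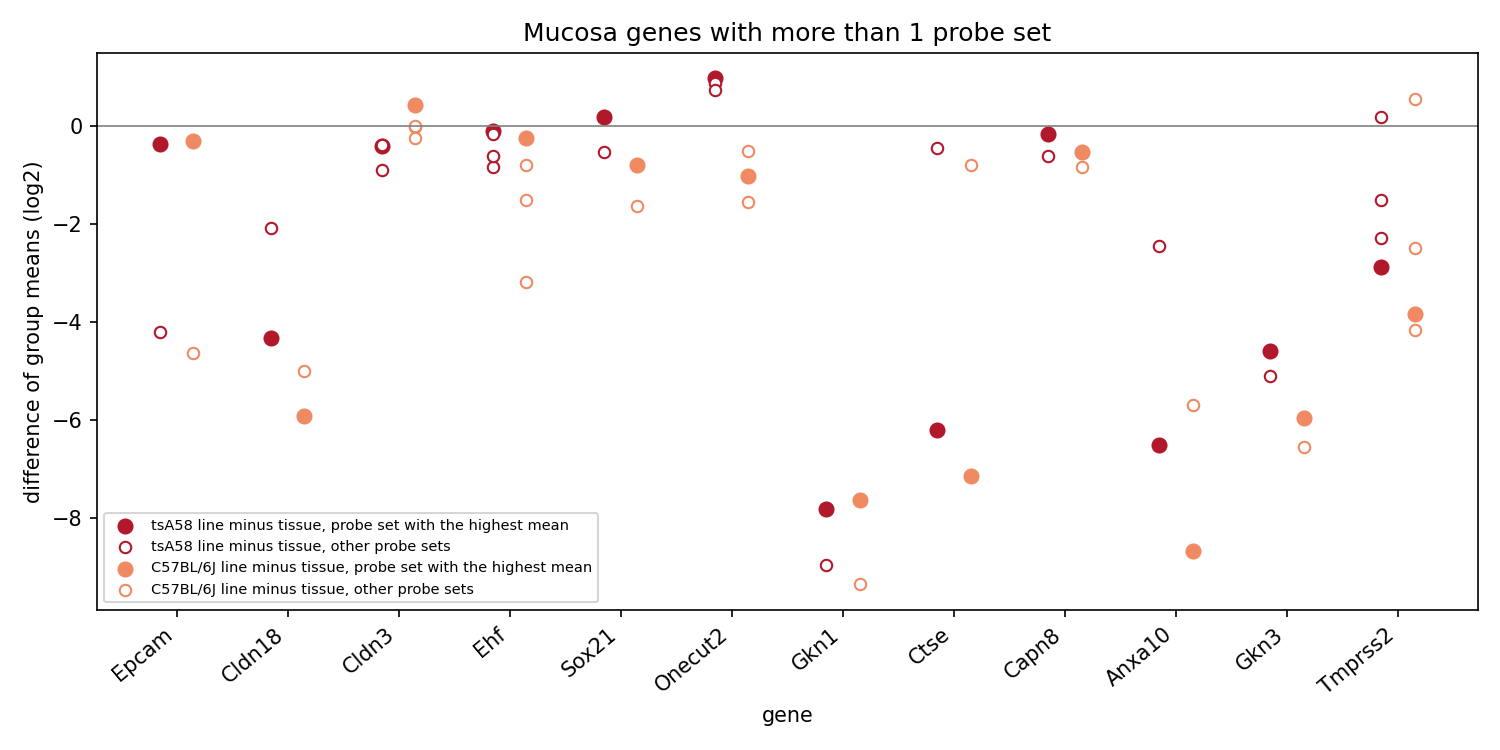
For each member with more than 1 probe set, points show the difference of group means between line and tissue, in the tsA58 and C57BL/6J pairs, with filled points for the probe set with the highest mean and open points for the others. Epcam is near 0 with the filled points and below -4 with the open ones, and Ctse the other way round.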

How the data were processed

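RNA extracted with Trizol and cleaned on a column was amplified in 2 rounds, starting from oligo(dT), before biotin labelling, per the labels' protocols. The values are log2 intensities per probe set that the authors deposited after RMA, per the submitters' processing notes. RMA corrects background, equalises the distribution over arrays and summarises each probe set. The RMA version was not given in the sources used. The files hold no detection calls, and the number of arrays limits the precision.

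The array holds 45101 probe sets, 64 of them controls. In the annotation of the platform 34945 had 1 gene symbol and 932 had several. Entrez identifiers of 34741 were found in RefSeq's table for GRCm38.p6, which changed 0 symbols. Each gene took its probe set with the highest mean, and 13285 genes above the array median on at least 2 arrays were tested with limma 3.58.1 (lmFit and eBayes, R 4.3.3) in 1 model with 4 group means, with 7 residual and 3.49 prior degrees of freedom. All groups share a gene's spread, so arrays outside a comparison affect its errors. P-values were adjusted by Benjamini-Hochberg over all tested genes of a comparison. The fit was tested on simulated data. Plots used Python 3.11.15 with matplotlib 3.10.9.

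The members and the gene lists were chosen with earlier results of these data known. Named genes are all members, up to 3 tested genes of each further list with the highest tissue mean, and muscle, interstitial cell and neuron checks. Alternatives changed the scaling, the filter, the probe set, the prior, array weights, a 3′ to 5′ covariate, the replicate block, the call rule and the arrays included.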

Additional observations from a re-analysis of the deposited data

Results flagged for a closer look

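For 4 members the difference between line and tissue differed between strains, by the limma test of that difference itself (tsA58 pair minus C57BL/6J pair). They were 3 of 31 tested members in the positive and 1 in the negative direction, against 7.30% and 13.0% of all genes. In both directions together 20.3% of all genes were called, so members were called no more often than genes in general. For Onecut2 the difference of differences was 2.00 ± 0.42 (SE, adjusted p = 0.0085). Its tsA58 line arrays all lay above its C57BL/6J line arrays, at levels around the array median. For Gast it was 2.51 ± 0.71 (adjusted p = 0.029) and for Pga5 4.60 ± 1.46 (adjusted p = 0.045). Both genes averaged more in C57BL/6J than in tsA58 tissue and were not called between the lines. For Chga it was -1.69 ± 0.51 (adjusted p = 0.037), with tsA58 tissue above C57BL/6J tissue. Pga5 ranged from 5.60 to 10.82 over the 3 tsA58 tissue arrays, and read 13.52 and 13.88 on the 2 C57BL/6J tissue arrays.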

How the results depend on the processing

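Of 62 called results of single members, 37 kept their direction and call under every alternative run that still tested the gene, 25 lost the call under at least 1 and 8 of them changed sign, all with scaling on hybridisation controls. The counts of members called between a line and its tissue were steady: tsA58 counts ran 23 to 24 and C57BL/6J counts 21 to 25 (with 1 array left out in turn, also 23 to 24 and 21 to 25). The 10 calls between tissues became 20 with scaling on hybridisation controls, 3 with the 3′ to 5′ covariate, and 1 to 14 when 1 array was left out. The single call between lines, beside 14.2% of all genes, became 9 with hybridisation controls (57.8% of all genes were called). It became 0 with the stricter filter (15.7%), with the next probe set (14.3%) and with the most variable probe set (17.9%). It was 3 with array weights (20.7%), 2 with the 3′ to 5′ covariate (24.4%), and 1 to 2 without 1 array (10.2% to 20.2%). The 4 calls for the difference between strains, beside 20.3% of all genes, became 2 with quantile normalisation (19.9%) and 10 with array weights (31.6%). They became 1 to 13 without 1 array. Scaling on hybridisation controls adds 1 constant per array and moved the median of all genes to 1.35 in the C57BL/6J pair and 2.30 between tissues. Relative to that median 0 called members changed sign. The values that turned positive, each smaller than the shift, were Elf3 (0.012) and Onecut2 (0.21) in the C57BL/6J pair, and between tissues Cdh1 (0.15), Cldn18 (0.39), Sox21 (0.81), Ctse (0.40), Anxa10 (0.076) and Gkn3 (0.72). Ctse also turned with its other probe set (1.10), for which the cause was not tested. Deviations of 15 same-numbered pairs of arrays correlated between -0.16 and 0.25. Differently numbered pairs were not compared, so these values cannot decide whether the replicate numbers pair the arrays. With the replicate number as a block, calls were 23 and 22 in the tsA58 and C57BL/6J pairs, 4 between tissues, 2 between lines and 3 for the difference. Of all genes 31.6%, 33.7%, 11.1%, 13.9% and 17.1% were called in those fits. Readings near the array median limit what can be said of Ehf, Vsig1, Lipf, Capn8 and Onecut2.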
